A study of Mus musculus with 13 samples.

Results

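Of the 68 miRNA probes measured in plasma exosomes of septic and sham mice, 4 carry miRNAs whose best known source is epithelium or endocrine tissue: miR-200a-3p, miR-429, miR-205-5p and miR-375. They were picked by probe name, with earlier results of these data known. Exosomes are membrane vesicles secreted by most cells. They were purified by ultracentrifugation from plasma taken 24 hours post-surgery from wild-type (WT) male mice of the C57BL/6J strain. The 8 CLP mice had cecal ligation and puncture, a model of polymicrobial sepsis in which gut contents leak from a ligated, perforated cecum, and the 5 sham mice were the surgical controls. Each mouse gave 1 sample, read as fluorescence intensity on hydrogel particles (FirePlex), so precision is limited by how few mice there were.

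The miR-200 family keeps epithelial cells in their epithelial state, mainly by repressing the transcription factors ZEB1 and ZEB2, which switch off E-cadherin. miR-200a and miR-429 are encoded in the same cluster, together with miR-200b. miR-205 belongs to stratified epithelium such as skin and oesophagus and also represses the ZEB factors, and miR-375 is abundant in pancreatic islets and in endocrine and other epithelial cells of the gut. miRNA in plasma exosomes cannot be traced to its cells by these data, and more vesicles from a tissue cannot be told apart from more of a miRNA per vesicle. miR-200b-3p, miR-200c-3p and miR-141-3p, which with miR-200a and miR-429 complete the family, were not analysed here, so the epithelial label could not be checked against them.

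The mature mouse sequences are shown because the cluster mates miR-200a-3p and miR-429 are nearly the same molecule with different seeds, the bases that select targets. Bases 2 to 8, the seed, are in capitals. The sequences are those of RefSeq (GRCm38.p6), which held 3 of the 4 miRNAs (miR-375 is named only). miR-203a-3p, a miRNA of stratified epidermis that is set beside miR-205-5p further on, is shown for comparison.
miR-200a-3p (chr4:156054911-156054932, minus strand): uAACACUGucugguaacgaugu
miR-429 (chr4:156053916-156053937, minus strand): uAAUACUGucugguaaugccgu
miR-205-5p (chr1:193507503-193507524, minus strand): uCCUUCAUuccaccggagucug
miR-203a-3p, named miR-203-3p in mouse (chr12:112130927-112130948, plus strand): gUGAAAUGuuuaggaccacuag

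miR-200a-3p and miR-429 were identical at 18 of 22 bases. They differed by C4U inside the seed and by C17U, A19C and U20C near the 3′ end, counted from the 5′ end with the miR-200a-3p base first. Their hairpins lie 908 bases apart on the same strand. miR-205-5p shared 5 of 22 bases with miR-200a-3p and had another seed. No other probe analysed, among the 50 matched by name to a mouse mature sequence, had any of these 3 seeds. The probes carry human miRNA names. Human and mouse miR-429 are not identical near the 3′ end, and how the probe captures the mouse form was not tested.

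Total signal differed between the groups, and every unscaled value below has to be read with that. The summed raw intensity of the panel ran from 33043 to 74685 units in CLP mice and from 10598 to 45121 units in sham mice. The level of a mouse, taken as the log2 geometric mean over the 60 miRNAs with a value above 0 in every mouse, ran from 7.26 to 8.92 in CLP and from 5.52 to 7.91 in sham. In sham mouse 4, 7 miRNAs were listed at 0 and 1 cell was empty. The raw columns labelled CLP 6 and CLP 7 match the columns of CLP 7 and CLP 6 in the authors' normalized table, so values given for these 2 mice follow the raw labels. Red cell miRNAs moved with the scaled comparison: all 3 that were analysed, miR-451a (log2 change -1.504), miR-486-5p (-0.76) and miR-16-5p (-1.24), fell relative to it, where 20% of the panel was called lower, and their part in the results below was not tested. Without scaling they were at 0.44, 1.17 and 0.70, and of these miR-486-5p alone passed.

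miR-200a-3p was low in sham mice and clearly brighter in nearly all CLP mice. Its raw intensity in CLP mice had a lowest value of 20.5 units (CLP 8), a median of 133 and a highest value of 267 (CLP 5), against 2.84, 8.79, 16.7, 0.19 and 36.2 units in sham mice 1 to 5. In 7 of 8 CLP mice it exceeded all sham values. The remaining mouse, CLP 8, had the lowest level of the CLP mice and lay below sham 5 alone, the sham mouse with the highest level. The value of 0.19 units in sham 4 lay below the floor of 2.10 units that was set for the unscaled signal (the 5th percentile of its positive values).

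miR-429 was dim throughout. Its raw intensity in CLP mice had a lowest value of 1.85 units (CLP 8), a median of 7.745 and a highest value of 18.6 (CLP 4), against 0.49, 0.38, 3.82, 0.06 and 3.59 units in sham mice 1 to 5. Of the sham mice 3 of 5 lay below the floor, as did CLP 8, so its fold change depends on where the floor is set. As with its cluster mate, 7 of 8 CLP mice lay above every sham mouse.

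miR-205-5p lay well above the floor in both groups, and the groups overlapped over most of their range. Its raw intensity in CLP mice had a lowest value of 23.85 units (CLP 8), a median of 119 and a highest value of 513 (CLP 2), against 36.8, 71.6, 154, 35.7 and 321 units in sham mice 1 to 5. No sham mouse was near the floor. The CLP mice spanned a 21.5-fold range, the widest of the 4 miRNAs in that group.

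miR-375 differed most among sham mice. Its raw intensity in CLP mice had a lowest value of 10.7 units (CLP 8), a median of 32.2 and a highest value of 43.6 (CLP 4), against 9.12, 2.47, 13.35, 0 and 69.9 units in sham mice 1 to 5. The brightest of all mice was thus sham 5, and sham 4 was listed at 0. The CLP mice spanned a 4.06-fold range.

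**Figure D1:**
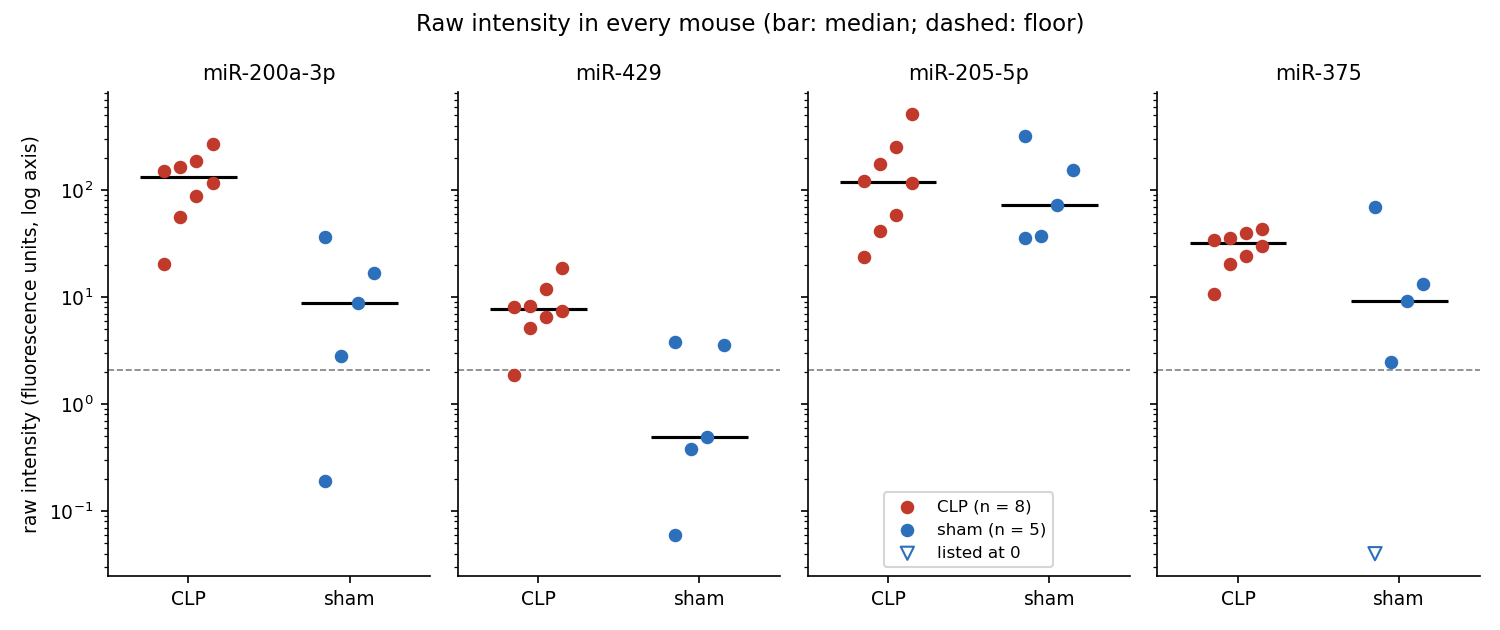
Raw intensity of the 4 miRNAs in every mouse (fluorescence units, log axis), with CLP (red, n = 8) left of sham (blue, n = 5), the median as a bar and the floor of 2.10 units dashed; the open triangle is the miR-375 value listed at 0 in sham mouse 4. The groups overlapped for all 4. miR-200a-3p and miR-429 lay above every sham mouse in 7 of 8 CLP mice, miR-205-5p in 1 and miR-375 in 0.

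The first comparison asked whether the signal of these miRNAs in plasma exosomes differed after CLP, with no scaling between mice. Of the 4, 3 rose and miR-205-5p did not pass. This is no more than the panel did, since limma with Benjamini-Hochberg adjustment over the panel called 90.9% of the 66 miRNAs tested, each of them higher in CLP, with a median change of 1.87 log2 units. miR-200a-3p was 13.2-fold higher, a log2 change of 3.72 (SE 0.64, limma adjusted p = 5.78e-05), and ranked second among the 66. Without sham 1 and sham 4, the 2 mice of lowest level, it was at 2.58 and still passed. miR-375 was 3.25-fold higher (log2 1.70, SE 0.62, limma adjusted p = 0.0132). miR-429 was 2.75-fold higher (log2 1.46, SE 0.46, limma adjusted p = 0.0063), although 7 of 8 of its CLP values exceeded every sham value. miR-205-5p had the smallest change of the whole panel, 0.33 (95% interval -0.99 to 1.65, limma adjusted p = 0.614).

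None of the 4 had groups that did not overlap, against 15.2% of the panel. The exact permutation test over all 1287 splits of the mice, adjusted over the panel, called 89.4% of the panel, each miRNA higher. Of the 4 it called miR-200a-3p (adjusted p = 0.0041) and miR-429 (adjusted p = 0.0157), and left miR-375 just short (adjusted p = 0.0521). The call of miR-375 also ended without sham mouse 2 (1.17) or without sham mouse 4 (1.20). The size for miR-429 followed the floor, at 2.92 with the floor at the 1st percentile and 0.54, no longer passing, at the 10th.

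The second comparison set the 4 miRNAs against the other probes, with the level of each mouse divided out. They went different ways. miR-200a-3p rose by 2.16 log2 units (4.47-fold, SE 0.53, limma adjusted p = 0.00936), the highest of the 65 miRNAs tested. miR-205-5p fell by 1.61 log2 units (3.05-fold lower, SE 0.46, limma adjusted p = 0.0192), the lowest of the 65. miR-429 (0.47, 95% interval -0.19 to 1.14) and miR-375 (0.14, 95% interval -1.16 to 1.44) did not pass. The panel as a whole had 10.8% called higher and 20% called lower, 30.8% in all, with a median change of 0.10. The exact permutation test, adjusted over the panel, called the same 2 of the 4 (adjusted p = 0.0144 for miR-200a-3p and 0.0379 for miR-205-5p), with 9.23% of the panel called higher and 21.5% lower. None of the 4 had groups that did not overlap, against 7.69% of the panel. The panel's split of 7 higher and 13 lower became 13 and 6 with the authors' normalized values or the 75th percentile and 3 and 13 with median scaling, and the first 2 of these moved the panel median by 0.16.

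**Figure D2:**
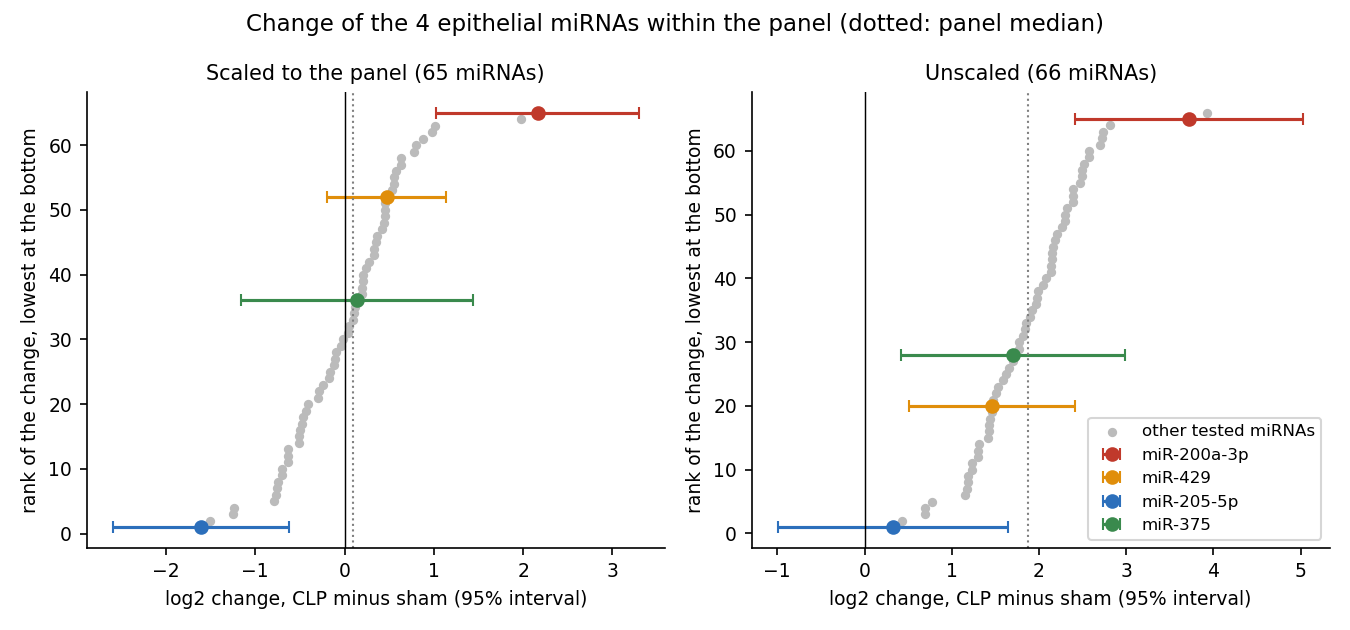
Log2 change, CLP minus sham, of all tested miRNAs in rank order, after scaling (left, 65 miRNAs) and without it (right, 66), with the 4 epithelial miRNAs coloured and drawn with their 95% intervals. miR-200a-3p stood at 2.16 and miR-205-5p at -1.61 at the ends of the scaled panel, while miR-429 and miR-375 lay within it.

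In scaled units, miR-200a-3p in CLP mice had a lowest value of 28.3 (CLP 8), a median of 66.1 and a highest value of 122, against 13.1, 19.1, 28.0, 0.805 and 31.8 in sham mice 1 to 5. The groups touched at CLP 8, which lay between sham 3 and sham 5. The change was 1.49 without sham mouse 4, and 1.24 without sham 1 and sham 4, the 2 mice of lowest level, and it still passed in each. The scaling was also done in 6 other ways: by the geometric mean without the 4 miRNAs, the median, the 75th percentile, the 3 most stable miRNAs (miR-29a-3p, miR-29b-3p and miR-320a), quantile normalization and the authors' normalized values. Over all 7, miR-200a-3p lay 1.67 to 2.09 above the panel median and was called in each. All but quantile normalization apply 1 factor per mouse, so they are not separate checks of a value set against the panel median.

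In scaled units, miR-205-5p in CLP mice had a lowest value of 26.6 (CLP 3), a median of 69.4 and a highest value of 230 (CLP 2), against 170, 155, 259, 151 and 281 in sham mice 1 to 5. It lay below every sham mouse in 7 of 8 CLP mice, and CLP 2 was the exception, within the sham range. The SD of miR-205-5p on the log2 scale was 1.10 in CLP mice (n = 8), against a panel median of 0.36 there, and 0.43 in sham mice (n = 5), against a panel median of 0.48 there. Over the same 7 scalings, it lay 1.51 to 1.71 below the panel median, and it was called in 5 of them. The call ended with the 75th percentile (-1.39, limma adjusted p = 0.0573) and with the authors' normalized values (-1.40, limma adjusted p = 0.055), within a range of 0.00505 to 0.0762 over all alternatives.

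In scaled units, miR-429 in CLP mice had a lowest value of 2.56 (CLP 8), a median of 4.21 and a highest value of 8.09 (CLP 4), against 2.26, 0.824, 6.41, 0.254 and 3.15 in sham mice 1 to 5. After scaling, 1 of 8 CLP mice lay above every sham mouse, against 7 of 8 in raw intensity. The scaled floor was 2.38, so 3 of 5 sham values were set to it and the size of the change depends on the floor. miR-429 turned negative (-0.24) with quantile normalization and passed without sham mouse 3 (0.79, limma adjusted p = 0.0495; up to 0.621 over all alternatives). It was at 1.20 with the floor at the 1st percentile and at 0.84 with a pseudocount of 1 unit in place of the floor, and passed in neither. miR-375 in CLP mice had a lowest value of 11.1 (CLP 6), a median of 17.0 and a highest value of 21.5, against 42.1, 5.36, 22.4, 0 and 61.4 in sham mice 1 to 5. All 8 CLP mice thus fell inside the range of the sham mice. Its direction had no stable sign, at -0.28 with quantile normalization, -0.27 without sham mouse 2 and -0.55 without sham mouse 4.

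Ratios of raw values within a mouse are free of any scaling factor. Probes differ in brightness, so only the difference of a ratio between mice was read, and no test was made. The ratio of miR-200a-3p to miR-205-5p was summarised without sham 4, where miR-200a-3p lay below the floor. It had a log2 mean of -0.04 ± 0.82 (SD, n = 8) in CLP mice, against -3.27 ± 0.29 (SD, n = 4) in sham mice, a 9.36-fold difference. This pair joins the highest and the lowest of the 65 scaled changes, so its large difference is not a separate result. The CLP mice ran from -1.78 (CLP 2) to 0.98 (CLP 3) and the 4 sham mice from -3.69 (sham 1) to -3.03 (sham 2), with sham 4 at -7.55 from its value below the floor, so that all 8 CLP mice lay above all 5 sham mice. Among all 2080 pairs of tested miRNAs 9.47% had groups that did not overlap, and of the 6 pairs of these 4 miRNAs 1 did.

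The ratio of the cluster mates miR-200a-3p to miR-429 was not compared between the groups, because miR-429 lay below the floor in 3 of 5 sham mice. In CLP mice it had a log2 mean of 3.87 ± 0.85 (SD, n = 8). It fell into a lower range of 3.11 to 3.47 in 5 mice and a higher one of 4.35 to 5.18 in CLP 2, CLP 5 and CLP 6. In CLP 8 miR-429 was below the floor as well. In sham 3 and sham 5, the sham mice with miR-429 above it, the log2 ratio was 2.13 and 3.33. miR-205-5p to miR-375 had a log2 mean of 1.96 ± 1.22 (SD, n = 8) in CLP mice and 3.15 ± 1.32 (SD, n = 4) in sham mice, sham 4 having no ratio, and the groups overlapped.

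miR-205-5p was also set against miR-203a-3p, a pair chosen after its values were seen. Both are miRNAs of stratified epithelium, and miR-203a represses the stem cell factor p63 in skin. Their ratio had a log2 mean of 0.43 ± 0.49 (SD, n = 8) in CLP mice and 2.25 ± 0.66 (SD, n = 5) in sham mice, a 3.53-fold lower ratio in CLP. The CLP mice ran from -0.33 to 1.17 and the sham mice from 1.38 to 2.85, without overlap, as 9.47% of the pairs of the panel did. This pair holds the lowest of the 65 scaled changes, miR-205-5p at -1.61, beside miR-203a-3p at 0.21. Its lower ratio is thus not a separate result from the scaled fall of miR-205-5p.

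**Figure D3:**
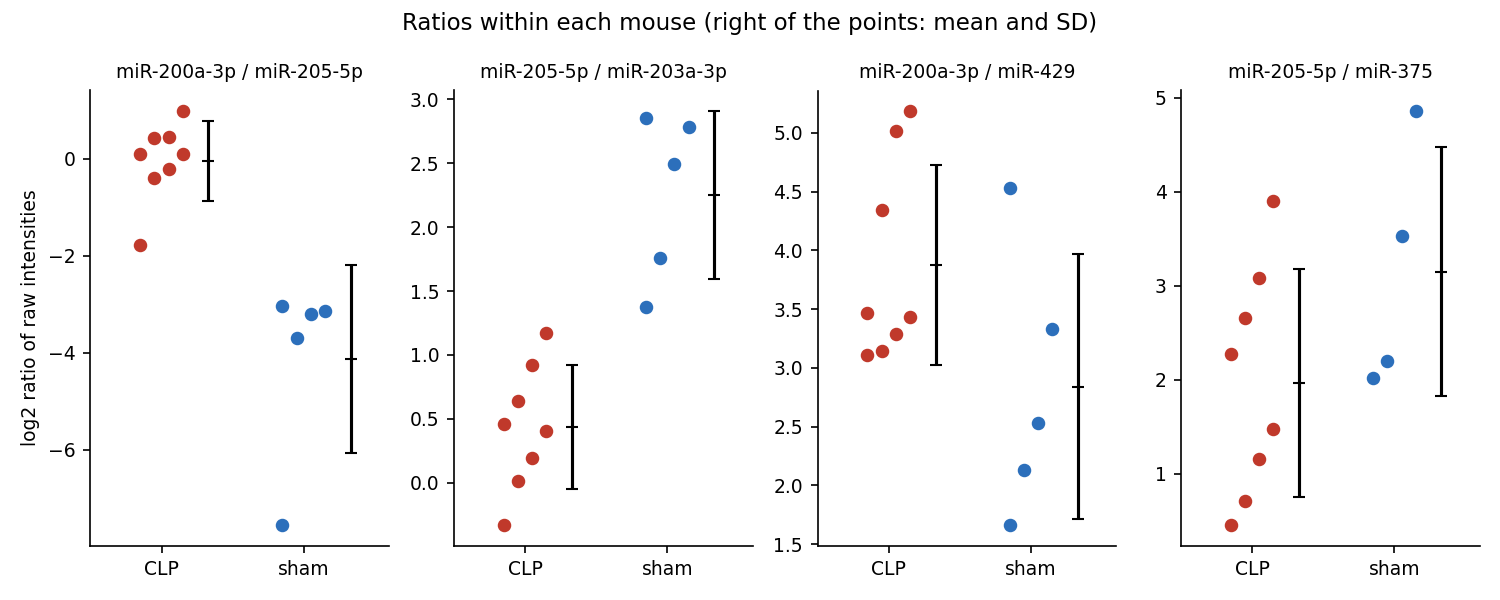
Log2 ratio of raw intensities in every mouse for 4 pairs, with CLP (red) left of sham (blue) and the group mean with its SD to the right of the points. The CLP and sham mice were separate for miR-200a-3p to miR-205-5p and for miR-205-5p to miR-203a-3p, and overlapped for miR-205-5p to miR-375. The ratio of miR-200a-3p to miR-429 is drawn but was not compared between the groups. miR-200a-3p lay below the floor in sham 4 (log2 ratio to miR-205-5p of -7.55), and miR-429 in sham 1, sham 2, sham 4 and CLP 8, so these ratios are not reliable.

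The third comparison asked how each miRNA followed the level of the mouse, since level and group went together. Within groups, miR-200a-3p had the steepest slope of the 66 miRNAs, 1.77 log2 units per log2 unit of level (SE 0.17, n = 13), against a panel median of 0.97 with quartiles of 0.76 and 1.16. The slopes were 1.52 for miR-205-5p (SE 0.35), 1.35 for miR-375 (SE 0.37) and 0.72 for miR-429 (SE 0.23), the last with 4 of its 13 values set to the floor. For miR-200a-3p and miR-375 the value of sham 4, a mouse of low level, was set to the floor too. A miRNA with a slope above 1 also goes up relative to the panel as the level goes up.

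With the level as a covariate of the unscaled fit, miR-200a-3p was at 0.29 (SE 0.40) and did not pass (limma adjusted p = 0.668). Its lowest limma adjusted p over the other alternatives, 3.53e-13, came with the replicate number of replicates 1 to 5 as a block. There all 4 miRNAs were given the same SE (0.495), and the same mice without the block gave 8.05e-05. In the fit with the level, miR-205-5p was at -2.62 (SE 0.73, limma adjusted p = 0.0348; 0.208 to 0.992 over its other alternatives). miR-429 stood at 0.06 (SE 0.51) and miR-375 at -0.91 (SE 0.77), and neither passed. The groups shared only the stretch of levels between CLP 8 (7.26) and sham 5 (7.91), so this fit rests largely on extending the lines.

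**Figure D4:**
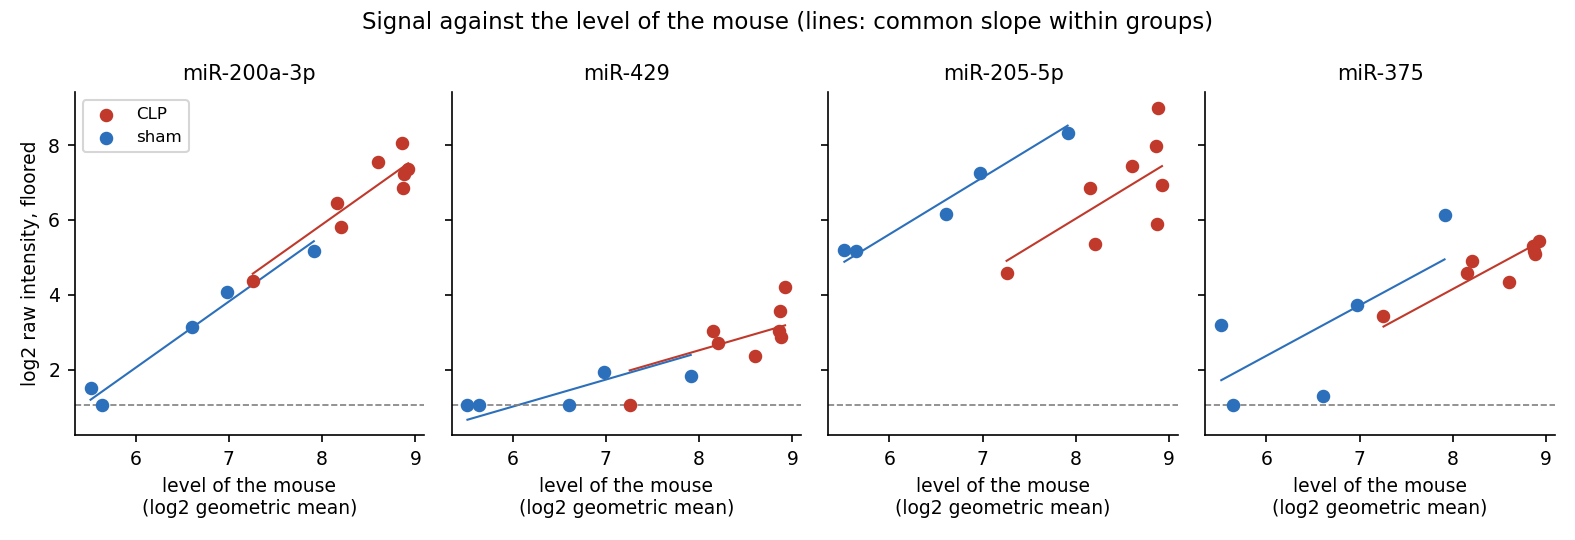
Floored log2 raw intensity of each miRNA against the level of the mouse (log2 geometric mean of 60 miRNAs), with CLP in red, sham in blue and lines of the common within-group slope. For miR-200a-3p (slope 1.77) the CLP line lay 0.29 from the sham line at equal level, whereas for miR-205-5p (slope 1.52) it lay 2.62 below.

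Among the 8 CLP mice, the miRNAs most like each of the 4 in scaled log2 values were sought by Pearson's r, with exact permutation p-values adjusted over the 250 pairs computed. Scaled values share 1 factor per mouse, so that all pairs are tied to some degree. The 2 closest to miR-205-5p were miR-203a-3p (r = 0.90, exact permutation p = 0.0035, adjusted p = 0.0947; Spearman's rho = 0.88, exact permutation p = 0.00724, adjusted p = 0.113) and miR-200a-3p (r = 0.66, exact permutation p = 0.0713, adjusted p = 0.372; rho = 0.71, exact permutation p = 0.0576, adjusted p = 0.351). Neither passed the adjustment. Without CLP 2 and CLP 3, the 2 mice farthest from the median of miR-205-5p, r with miR-203a-3p was 0.89.

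CLP 2, CLP 5 and CLP 6 were the 3 highest in both miR-205-5p and miR-203a-3p, and CLP 5 and CLP 6 the 2 highest in miR-200a-3p. The miRNAs closest to miR-200a-3p were miR-130a-3p (r = 0.85, exact permutation p = 0.00714, adjusted p = 0.136; rho = 0.90, exact permutation p = 0.00456, adjusted p = 0.104) and miR-203a-3p (r = 0.75, exact permutation p = 0.0337, adjusted p = 0.267; rho = 0.81, exact permutation p = 0.0218, adjusted p = 0.247). These r were 0.75 and 0.77 without CLP 5 and CLP 8. The cluster mate miR-429 stood much lower in likeness to miR-200a-3p (r = 0.09, exact permutation p = 0.83, adjusted p = 0.97; rho = 0.10, exact permutation p = 0.84, adjusted p = 0.955). That r was -0.35 without CLP 5 and CLP 8, and on the unscaled signal, where all miRNAs share the level, it was 0.68. The scaled values of miR-429 in CLP mice, 2.56 to 8.09, lay not far above the floor of 2.38. What part this had in its low r was not tested.

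miR-429 ran most closely with miR-339-5p (r = 0.95, exact permutation p = 0.000942, adjusted p = 0.0523; rho = 0.90, exact permutation p = 0.00456, adjusted p = 0.104) and miR-885-5p (r = 0.94, exact permutation p = 0.00139, adjusted p = 0.0523; rho = 0.88, exact permutation p = 0.00724, adjusted p = 0.113). The values were 0.90 and 0.89 without CLP 4 and CLP 8. miR-375 ran most closely with miR-125a-5p (r = 0.85, exact permutation p = 0.00699, adjusted p = 0.136; rho = 0.88, exact permutation p = 0.00724, adjusted p = 0.113) and miR-151a-5p (r = 0.80, exact permutation p = 0.0141, adjusted p = 0.178; rho = 0.90, exact permutation p = 0.00456, adjusted p = 0.104), with 0.70 and 0.79 without CLP 1 and CLP 6. None of the miRNAs closest to these 4 by Pearson's r passed the adjustment by r or by rho. By rho, the miRNA closest to miR-429 was miR-431-3p (rho = 0.98, exact permutation p = 0.000397, adjusted p = 0.0496; r = 0.92, exact permutation p = 0.000595, adjusted p = 0.0523), which passed by rho and not by r and was singled out with its value known.

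**Figure D5:**
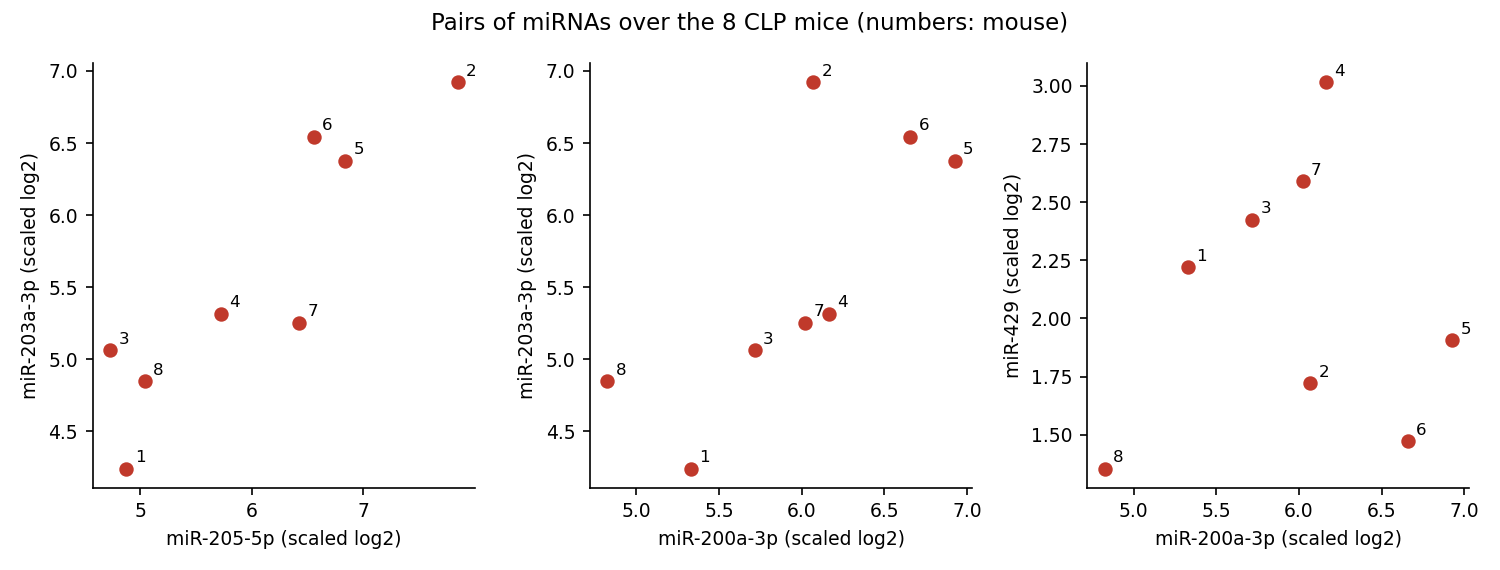
Scaled log2 values of 3 pairs of miRNAs in the 8 CLP mice, each point labelled with the number of its mouse. miR-205-5p and miR-203a-3p had r = 0.90, miR-200a-3p and miR-203a-3p r = 0.75, and miR-200a-3p and miR-429 r = 0.09; none of the 3 passed the adjustment. The miR-429 values lay not far above the scaled floor.

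Of 20 other miRNAs of epithelium, gut, liver and endocrine cells that were listed for comparison, 5 were among the probes analysed. Relative to the panel 1 of these 5 rose and 0 fell, where 10.8% of the panel was called higher and 20% lower, and unscaled 5 of 5 rose, as 90.9% of the panel did. The one that rose was miR-10a-5p, encoded in a Hox cluster (1.98, SE 0.22, limma adjusted p = 1.26e-05). miR-203a-3p was at 0.21 (SE 0.41), miR-30a-5p of kidney and other epithelia at 0.63 (SE 0.29), the hepatocyte miR-122-5p at 0.98 (SE 0.44, with 4 sham values because of the empty cell), and miR-192-5p of gut and kidney epithelium at -0.63 (SE 0.24), and these did not pass. The 5 had a median change of 0.63, against 0.31 for the 4 miRNAs described here and 0.10 for the panel. The median of the 4 stands for no shared change. It lies between miR-429 (0.47) and miR-375 (0.14), which did not pass, while miR-200a-3p (2.16) and miR-205-5p (-1.61) went opposite ways.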

How the data were processed

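The authors deposited a raw table of fluorescence intensity, linear and unscaled between samples, for 68 probes in 13 samples. Per the labels' protocols, miRNAs were hybridized to particles, ligated to adapters and amplified by RT-PCR. The scanner and any background correction were not given in the sources used here. The authors' normalized intensity table equals the raw one times 1 factor per sample. Samples were grouped by title, each taken as 1 mouse. The labels give no batch. The p-values of the group comparisons weigh a difference against the spread between these samples.

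Raw values were scaled per sample to the level (60 miRNAs), floored at the 5th percentile of positive values (2.38 units scaled, 2.10 unscaled) and put on the log2 scale. A miRNA was tested if 5 or more samples exceeded the floor (65 scaled, 66 unscaled). Tests used limma 3.58.1 (R 4.3.3), two-sided, with Benjamini-Hochberg adjustment and a threshold of 0.05. The fit was tested on simulated data. Exact permutation tests were two-sided, with 0.000777 as the smallest p a split of the mice can give. The rest was done in Python 3.11.15 (scipy 1.17.1, pandas 2.3.3, numpy 2.4.6, matplotlib 3.10.9).

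Named were the 4 miRNAs, the 2 most like each by Pearson's r over CLP mice, and listed epithelial and red cell miRNAs. The members and lists were chosen with earlier results of these data known. Alternatives covered scaling, floor, filter, test, level, replicate number and left-out mice.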

Additional observations from a re-analysis of the deposited data

Results flagged for a closer look

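In scaled log2 values of miR-429, sham mouse 3 (2.68, from a raw intensity of 3.82 units) stood above the other 4 sham mice, with a gap to the nearest of them that was 0.715 of the whole range of the group. Of those 4 mice 3 were set to the floor, which shortens the range. Of 16 checks of this kind (4 miRNAs, scaled and raw values, both groups) 1 stood apart, and chance alone gives about 1 in 20. That rate holds for values not tied at a floor, which was not the case here. Without this mouse miR-429 passed as higher in CLP, at 0.79 (SE 0.29).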

How the results depend on the processing

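The scaled rise of miR-200a-3p kept its direction and passed in all 29 alternatives (1.24 to 2.47). The level as a covariate is not among these 29, since it was fitted to unscaled values, and there miR-200a-3p was at 0.29 and not called. Leaving out each mouse gave 1.49 to 2.44 for miR-200a-3p, -1.87 to -1.43 for miR-205-5p, 0.30 to 0.79 for miR-429 (passing without sham 3; 1.20 with the floor at the 1st percentile and 0.84 with a pseudocount, not passing), -0.55 to 0.63 for miR-375 and 13 to 22 calls (13 without sham 2). miR-205-5p kept its direction in 29 of 29 and lost its call in 4, with the 75th percentile (-1.39), the authors' values (-1.40), array weights (-1.43) and the replicate block (-1.61). Quantile normalization gave -0.24 for miR-429, -0.28 for miR-375 and 12 calls. miR-375 was at -0.28 with the floor at the 10th percentile, where miR-429 was not tested, and at -0.29 without sham 1 and sham 4. The cause was not tested.

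Unscaled, the floor at the 10th percentile left miR-429 at 0.54, and the exact permutation test left miR-375 at 1.70 without a call. Without sham 1 and sham 4, miR-200a-3p was at 2.58, miR-205-5p at -0.50, miR-375 at 1.01, no longer called, and 37 miRNAs were called. Leaving out each mouse gave 1.17 to 2.45 for miR-375 and 56 to 63 calls. The level as a covariate gave 0.29 for miR-200a-3p, 0.060 for miR-429, -2.62 for miR-205-5p, -0.91 for miR-375 and 8 calls.

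The replicate number as a block, over replicates 1 to 5 of each group, gave 6 calls after scaling, against 17 for the same mice without it, a comparison added after the data were seen. No pairing by number was seen (correlations of deviations -0.34 to 0.29, and 1 of 5 CLP mice matched its own number best). So few numbers cannot exclude one. Signal near the floor limits miR-429 in sham mice most.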

Other observations

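Of the 250 pairs of miR-200a-3p, miR-429, miR-205-5p or miR-375 with another miRNA over the 8 CLP mice, 1 passed the adjustment by Pearson's r and 2 by Spearman's rho. The pair that passed by both was miR-429 with miR-320d (r = -0.96, exact permutation p = 4.96e-05, adjusted p = 0.0124; Spearman's rho = -0.98, exact permutation p = 0.000397, adjusted p = 0.0496), a pair outside the naming rule that was named after its value was seen. It was -0.93 without CLP 4 and CLP 8 and 0.18 on the unscaled signal, so the relation is one of scaled values. The pair that passed by rho only was miR-429 with miR-431-3p, with r = 0.93 without CLP 4 and CLP 8 and r = 0.99 on the unscaled signal.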
